A study of Mus musculus with 4 samples.

Results

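The 10 circadian clock genes Arntl, Clock, Npas2, Per1, Per2, Per3, Cry1, Cry2, Nr1d1 and Dbp were followed in mouse tibialis anterior, a hind limb muscle made mostly of fast fibres. They were taken by name from a table of 32868 gene names, where each of the 10 had 1 row. RNA came from C57BL/6 mice at postnatal day 21, and the series asks how loss of Nf1, which encodes the Ras inhibitor neurofibromin, affects growth and energy use of muscle in young animals. Both Nf1 alleles were floxed in the Nf1-KO group (Nf1flox/flox/Myf5+) and 1 in the Het group (Nf1flox/+/Myf5+), so the control libraries also came from animals with a floxed allele and the Myf5 label. In crosses of this kind Myf5+ stands for a Cre driver active in muscle precursors, so cells outside that lineage keep their Nf1. Each group had 2 libraries. The sources used here give neither the number of animals per library nor the hour at which muscle was collected, and where replicates are not separate animals the p-values measure only the spread between these libraries.

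The clock is a loop of transcription and repression that runs in nearly every cell. BMAL1 (the product of Arntl) pairs with CLOCK or NPAS2 and activates genes through E-box sequences, among them the Per and Cry genes, whose proteins then repress the pair. REV-ERB proteins (Nr1d1, Nr1d2) repress Arntl through ROR elements, while the output factor DBP acts through D-boxes. In mouse muscle RNA of Arntl, Clock and Npas2 is known to peak towards the end of the night, and RNA of Nr1d1, Dbp and the Per genes from the middle of the day into the early night.

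The DNA ahead of 4 of these genes is shown first, since it carries the elements through which the loop is wired. The windows are RefSeq sequences of build GRCm38.p6, 250 bases before to 50 bases after an annotated start, on the gene's own strand, and 9 of the 10 genes had at least 1 window. In capitals is the E-box CACGTG in Per1 and Cry1, the D-box TTATGTAA in Per3, and TNGGTCA in Arntl. TNGGTCA was searched as a loose form of the ROR element core, with any base at N.
Per1, chr11:69098699-69098998, plus strand: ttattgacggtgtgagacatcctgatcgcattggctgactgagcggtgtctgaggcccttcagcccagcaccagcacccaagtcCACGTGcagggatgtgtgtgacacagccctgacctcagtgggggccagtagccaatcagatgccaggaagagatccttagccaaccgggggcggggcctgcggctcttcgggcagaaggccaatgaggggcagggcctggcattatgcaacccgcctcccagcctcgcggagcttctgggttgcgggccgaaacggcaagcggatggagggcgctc
Cry1, chr10:85185005-85185304, minus strand: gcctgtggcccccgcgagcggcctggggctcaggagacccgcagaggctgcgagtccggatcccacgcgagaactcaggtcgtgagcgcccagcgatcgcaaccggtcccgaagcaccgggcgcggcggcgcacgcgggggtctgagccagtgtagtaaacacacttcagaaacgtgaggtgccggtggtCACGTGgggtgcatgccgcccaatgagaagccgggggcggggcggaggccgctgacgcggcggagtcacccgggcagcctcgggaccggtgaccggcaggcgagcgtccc
Per3, chr4:151044616-151044915, minus strand: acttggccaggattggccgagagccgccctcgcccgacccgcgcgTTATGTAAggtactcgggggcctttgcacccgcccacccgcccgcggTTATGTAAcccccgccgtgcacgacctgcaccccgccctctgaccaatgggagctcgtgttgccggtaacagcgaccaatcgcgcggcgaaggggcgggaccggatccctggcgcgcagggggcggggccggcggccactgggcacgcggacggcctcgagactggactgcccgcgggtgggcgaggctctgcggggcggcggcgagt
Arntl, chr7:113207261-113207560, plus strand: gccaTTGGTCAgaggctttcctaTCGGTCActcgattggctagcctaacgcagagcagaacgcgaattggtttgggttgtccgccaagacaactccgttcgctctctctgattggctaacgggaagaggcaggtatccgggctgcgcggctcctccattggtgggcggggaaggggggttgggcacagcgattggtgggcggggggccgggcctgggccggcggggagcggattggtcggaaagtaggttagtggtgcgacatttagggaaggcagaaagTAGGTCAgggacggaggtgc

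The E-box began 166 bases before the start site in Per1 and 60 bases before it in Cry1. The copies of the D-box in Per3 began 205 and 158 bases before the start, and the matches in Arntl began 246 and 227 bases before and 30 bases after it. Both strands were searched. The 9 genes had 13 windows in all. The E-box was found in 2 of the 13 and in 7.15% of all 32817 windows of this length. The D-box (TTATGTAA or TTACGTAA) was found in 1 of the 13 and in 1.05% of windows, and the ROR element core in 4 of the 13 (windows of Arntl, Cry2 and Per3, those of Arntl overlapping) and in 11% of windows. Neither the cAMP response element TGACGTCA nor a glucocorticoid element occurred in a window of these genes, and they occurred in 1.79% and 0.475% of all windows. The window of Per3 held a match of TNGGTCA, in lower case above and on the other strand, that began 118 bases before the start. In the 4 windows shown no match of one motif overlapped a match of another. A match says only that these letters are present, and the windows do not reach the distal elements of these genes. Since N is any base, a match of TNGGTCA need not be a ROR element.

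Values are RPKM (reads scaled to the length of the gene and the depth of the library) as the authors deposited them, so levels can be compared between genes. Estimated depth was 36500000 and 58100000 reads in the Het libraries and 47000000 and 51000000 in the Nf1-KO libraries, so depth did not separate the groups. The targeted gene Nf1 held 1.09 and 1.01 RPKM in Het and 0.89 and 0.85 RPKM in Nf1-KO, lower in both libraries labelled Nf1-KO (log2 fold change -0.18, limma adjusted p 0.0364), but this call was lost with values as deposited (-0.13, limma adjusted p 0.0944). All 8 skeletal myofibre markers looked for were tested, and their sums were high, as the tissue label says. They summed to 49747 and 49758 RPKM in Het and to 39625 and 39304 RPKM in Nf1-KO. Changes are differences of log2(RPKM + 1) after scaling between libraries, a scale that understates the change of low genes, and a gene was called when its limma p-value, adjusted by Benjamini-Hochberg over 10690 tested genes, was under 0.05.

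Of the 10 clock genes, 9 passed the filter on low values and were tested. In Nf1-KO 4 rose (Per1, Per2, Per3 and Cry2), 4 fell (Arntl, Clock, Cry1 and Nr1d1), and Dbp did not pass. Over all genes tested 23.8% were called higher, 26.8% lower and 50.5% in either direction, so a call is common in this comparison. Scaling moved that split, since with values as deposited 35.2% were called higher, 17.6% lower and 52.8% in either direction. On the log2(RPKM + 1) scale the largest change was that of Nr1d1, larger in size than 96.9% of all genes tested, followed by Arntl at 94.2% and Clock at 85.5%. The changes of Per1, Per2 and Per3 were larger than those of 69.0%, 75.5% and 77.6% of all genes tested. For Cry1, Cry2 and Dbp these shares were 55.3%, 54.2% and 33.0%. As deposited, the libraries of the groups did not overlap in 8 of the 9 genes, against 77.3% of all genes tested.

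**Figure D1:**
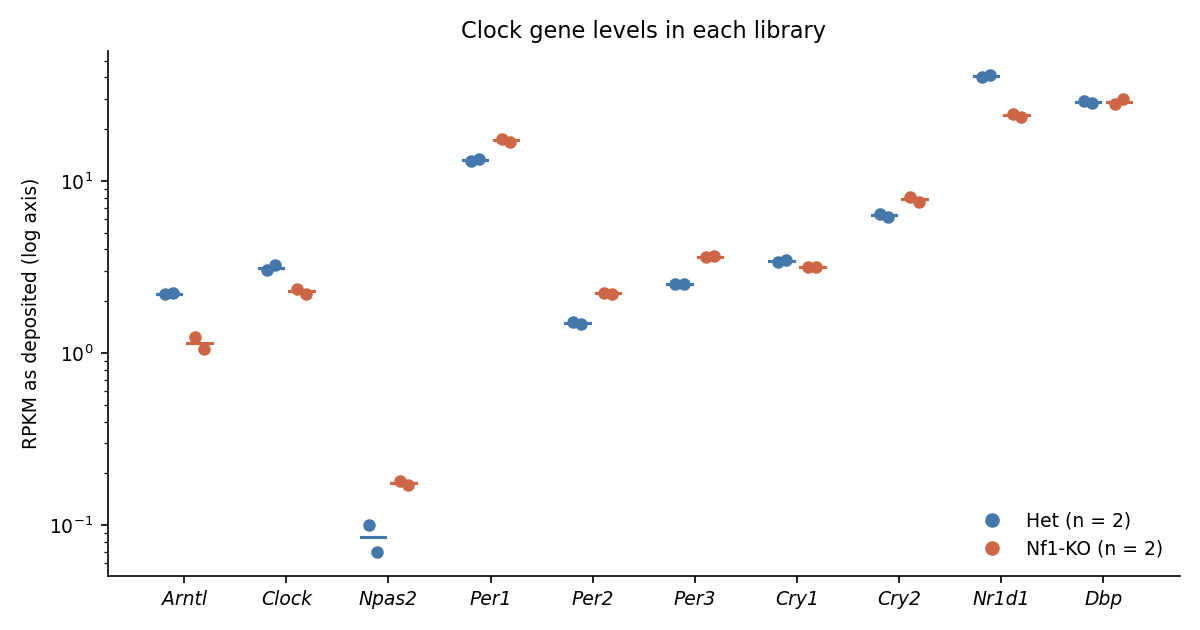
RPKM as deposited (log axis) of the 10 clock genes in each library, with points for libraries and bars for the group means (n = 2 each). Both Nf1-KO points lie below both Het points in Arntl, Clock, Cry1 and Nr1d1 and above them in the Per genes, Cry2 and the scarce Npas2, while the points of Dbp overlap.

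Both tested activators of the loop fell. Arntl (chromosome 7, 113207465 to 113314126 in GRCm38) encodes BMAL1, the partner without which the loop does not run. It was 2.2 and 2.22 RPKM in Het and 1.24 and 1.05 RPKM in Nf1-KO. Both Nf1-KO libraries were low and the groups did not overlap. The mean fell from 2.21 ± 0.0141 RPKM in the Het group to 1.15 ± 0.134 RPKM in the Nf1-KO group (± SD, n = 2 each), and the ratio of the scaled means was 0.481. On the log2 scale Arntl fell by 0.65 (standard error, SE, 0.064; limma adjusted p 0.000323). The size of this fall depends on the pseudocount, since with 0.1 in place of 1 the log2 fold change of Arntl was -0.996 (limma adjusted p 0.000446). The authors' deposited table put the fall of Arntl at -1.06 (adjusted p 2.31e-07).

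Clock (chromosome 5, 76209868 to 76304792) encodes the usual partner of BMAL1 and fell less. Its values were 3.03 and 3.24 RPKM in Het and 2.37 and 2.2 RPKM in Nf1-KO, with both Nf1-KO libraries below both Het libraries. On the log2 scale Clock fell by 0.41 (SE 0.0579, limma adjusted p 0.00156). Npas2 (chromosome 1, 39193731 to 39363236), which can take the place of CLOCK, was scarce in this muscle. Its values were 0.1 and 0.07 RPKM in Het against 0.18 and 0.17 RPKM in Nf1-KO, under the filter of 0.5 RPKM. The direction of its values was the opposite of Arntl and Clock. Npas2 had a log2 fold change of 0.10 and a limma adjusted p of 0.0487 with no filter, and 0.96 with an adjusted p of 0.216 in the authors' deposited table, where its mean normalized count was 25.5.

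The 3 Period genes rose together. They encode the proteins that join the cryptochromes in repressing the BMAL1 pair, and Per1 and Per2 also respond to outside signals that set the clock. Per1 (chromosome 11, 69095217 to 69109960) was 13.11 and 13.41 RPKM in Het and 17.6 and 16.81 RPKM in Nf1-KO. It had 2 start windows, and the E-box shown above was found in only 1 of them. On the log2 scale Per1 rose by 0.25 (SE 0.0375, limma adjusted p 0.00196). The rise of Per1 was the smallest of the 3 in ratio, 1.20 times by the scaled means, from the highest level of the 3.

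Per2 (chromosome 1, 91415982 to 91459324) was 1.51 and 1.48 RPKM in Het and 2.24 and 2.21 RPKM in Nf1-KO, a ratio of scaled means of 1.38. On the log2 scale Per2 rose by 0.30 (SE 0.0524, limma adjusted p 0.0038). Per3 (chromosome 4, 151003652 to 151044665), the gene with the copies of the D-box, was 2.53 and 2.51 RPKM in Het and 3.61 and 3.66 RPKM in Nf1-KO. Its rise on the log2 scale, 0.32 (SE 0.0481, limma adjusted p 0.00212), was the largest among the 9 genes on that scale, while by the ratio of scaled means Per2 rose more (1.38 times against 1.34 for Per3). In each of the 3 genes both Nf1-KO libraries lay above both Het libraries, and the gap between groups was larger than the spread within either. Differences among the 3 rises were not tested.

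The cryptochromes moved in opposite directions. Both encode repressors that bind the BMAL1 pair, and CRY1 is known as the stronger of them. Cry1 (chromosome 10, 85131700 to 85185064) held 3.36 and 3.49 RPKM in Het, and both Nf1-KO libraries stood at 3.14 RPKM. Its fall was small, a log2 fold change of -0.18 (SE 0.0488, limma adjusted p 0.0232). Cry1 did not pass with values as deposited (-0.10, limma adjusted p 0.139), and the authors' deposited table did not call it either (-0.24, adjusted p 0.174).

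Cry2 (chromosome 2, 92403646 to 92434043) was 6.44 and 6.21 RPKM in Het and 8.09 and 7.55 RPKM in Nf1-KO, a log2 fold change of 0.17 (SE 0.0481, limma adjusted p 0.0241). Both Nf1-KO libraries were higher. The ratio of Cry2 to Cry1 within a library, which no scaling between libraries can alter, was 1.92 and 1.78 in Het and 2.58 and 2.4 in Nf1-KO. The calls of both cryptochromes were close to the threshold. When 1 library was left out, its group kept 1 library, which was assumed to vary like the other group, and the fold changes stayed at -0.20 to -0.16 for Cry1 and 0.13 to 0.22 for Cry2. In these fits the call of Cry1 was lost without Het library 2 (limma adjusted p 0.0936), Nf1-KO library 1 (0.0905) or Nf1-KO library 2 (0.0963). That of Cry2 was lost without Het library 1 (limma adjusted p 0.053), Het library 2 (0.0999) or Nf1-KO library 1 (0.132).

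**Figure D2:**
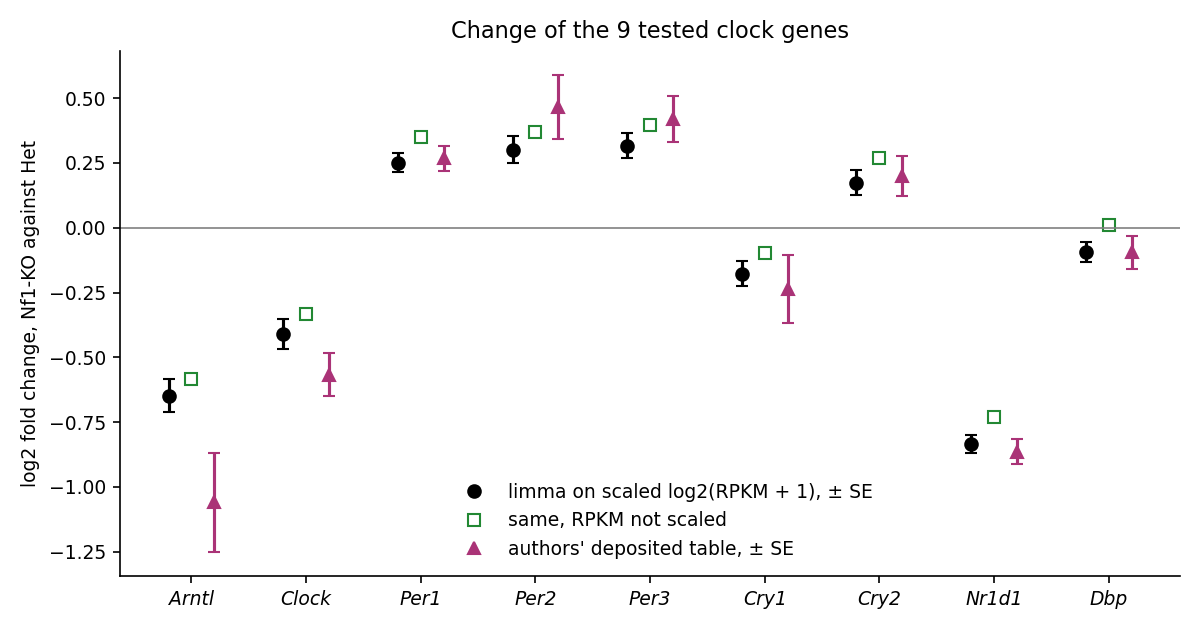
Log2 fold change of Nf1-KO against Het for the 9 tested clock genes, from limma on scaled log2(RPKM + 1) (circles, ± standard error), from the same fit without scaling (squares) and from the authors' deposited table (triangles, ± standard error). Arntl, Clock and Nr1d1 lie below 0 and the 3 Per genes and Cry2 above 0 in all 3 versions, while Dbp changes sign without scaling.

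Nr1d1 showed the largest fall on the log2(RPKM + 1) scale, while by the ratio of scaled means Arntl fell more (0.481 against 0.55), as it did with a pseudocount of 0.1 (-0.996 against -0.86) and in the authors' deposited table (-1.06 against -0.86). Nr1d1 encodes REV-ERB alpha, the heme-binding nuclear receptor that represses Arntl and also acts on mitochondrial and lipid genes in muscle. It lies on chromosome 11 from 98767932 to 98775333. Nr1d1 was the most abundant of the 10 genes in Het, at 39.96 and 41.45 RPKM, and second to Dbp in Nf1-KO, at 24.63 and 23.59 RPKM. The groups were far apart relative to their spread, 40.7 ± 1.05 RPKM (SD, n = 2) against 24.1 ± 0.735 RPKM (SD, n = 2). The log2 fold change of Nr1d1 was -0.84 (SE 0.035, limma adjusted p 8.25e-06).

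In GENCODE M21, 263 exonic bases of Nr1d1 (8.55%) are shared with Thra, a thyroid hormone receptor gene on the opposite strand. Whether the counting used strand is not given in the sources used here, so reads of the genes cannot be told apart there. Thra held 20.49 and 20.09 RPKM in Het and 19.91 and 19.42 RPKM in Nf1-KO, a log2 fold change of -0.15 beside the -0.84 of Nr1d1.

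Dbp, a transcription factor that is among the strongest rhythmic outputs of the loop and a direct E-box target, did not pass the test. It lies on chromosome 7 from 45705088 to 45710203 and was 29.07 and 28.29 RPKM in Het and 27.84 and 29.91 RPKM in Nf1-KO. As deposited, the Nf1-KO libraries lay on either side of both Het libraries, while after scaling between libraries both lay below them (30.1 and 29.4 against 26.9 and 28.8 scaled RPKM). The log2 fold change was -0.09 (95% interval -0.19 to -0.0016, before adjustment) with a limma adjusted p of 0.0837, and 0.01 (limma adjusted p 0.868) with values as deposited. Without Nf1-KO library 2 the fall of Dbp passed, at -0.14 with a limma adjusted p of 0.0297. Of the exonic bases of Dbp 539 (18.0%) are shared with Sphk2 on the opposite strand, which held 2.79 to 3.05 RPKM in Het and 3.45 to 3.81 RPKM in Nf1-KO.

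**Figure D3:**
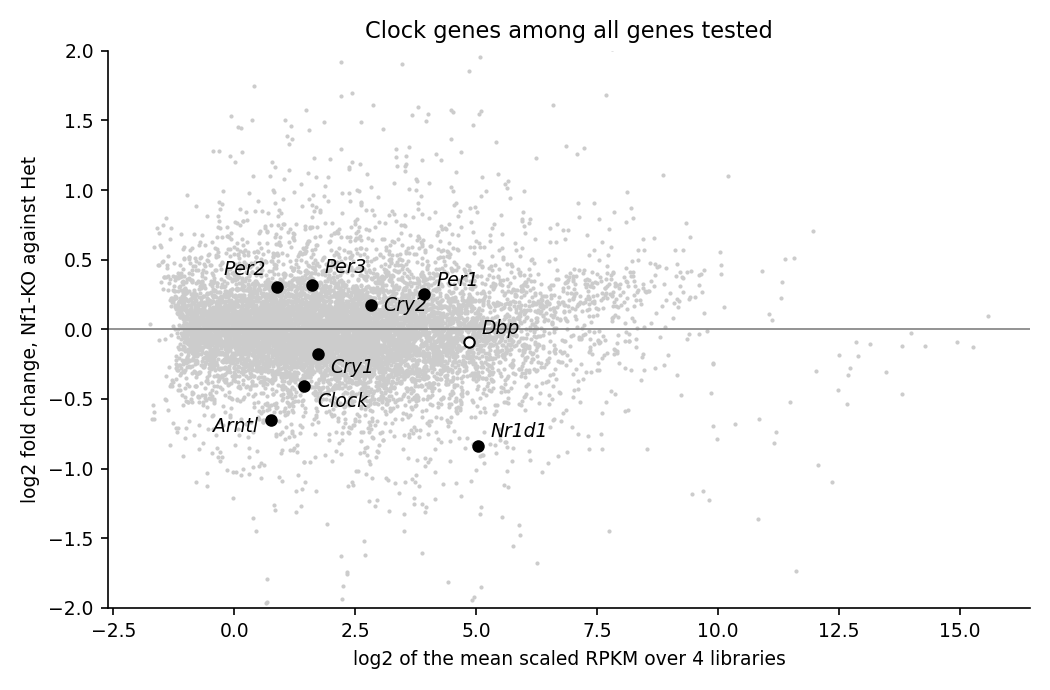
Log2 fold change against the log2 of the mean scaled RPKM for the 10690 tested genes (grey; 25 genes beyond ±2 are outside the axis), with the 9 tested clock genes marked. Filled circles are past the threshold and the open circle, Dbp, is not; the changes of Nr1d1 and Arntl are larger in size than those of 96.9% and 94.2% of the genes.

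From high to low, the levels ran in Het as Nr1d1, Dbp, Per1, Cry2, Cry1, Clock, Per3, Arntl, Per2 and Npas2, and the libraries of neighbours in this order did not overlap. In Nf1-KO Dbp stood above Nr1d1, Per3 above Cry1 and Clock, and Per2 above Arntl. There only the neighbours Clock (2.37 and 2.2 RPKM) and Per2 (2.24 and 2.21 RPKM) overlapped.

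Ratios within a library gave the same contrast free of scaling. The ratio of Per1 to Arntl was 5.96 and 6.04 in Het and 14.2 and 16.0 in Nf1-KO. That of Per2 to Arntl was 0.686 and 0.667 against 1.81 and 2.10, and that of Per3 to Arntl 1.15 and 1.13 against 2.91 and 3.49. The Period genes were thus 2.52, 2.89 and 2.80 times as high relative to Arntl in Nf1-KO as in Het. The ratio of Dbp to Arntl was 13.2 and 12.7 in Het and 22.5 and 28.5 in Nf1-KO, while Dbp itself did not pass. Nr1d1 and Arntl fell together, and their ratio went from 18.2 and 18.7 to 19.9 and 22.5, a change of 1.15 times without overlap of the groups. Against Per1, in turn, Nr1d1 went from 3.05 and 3.09 to 1.40 in each Nf1-KO library. The ratios are given as values and were not tested.

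**Figure D4:**
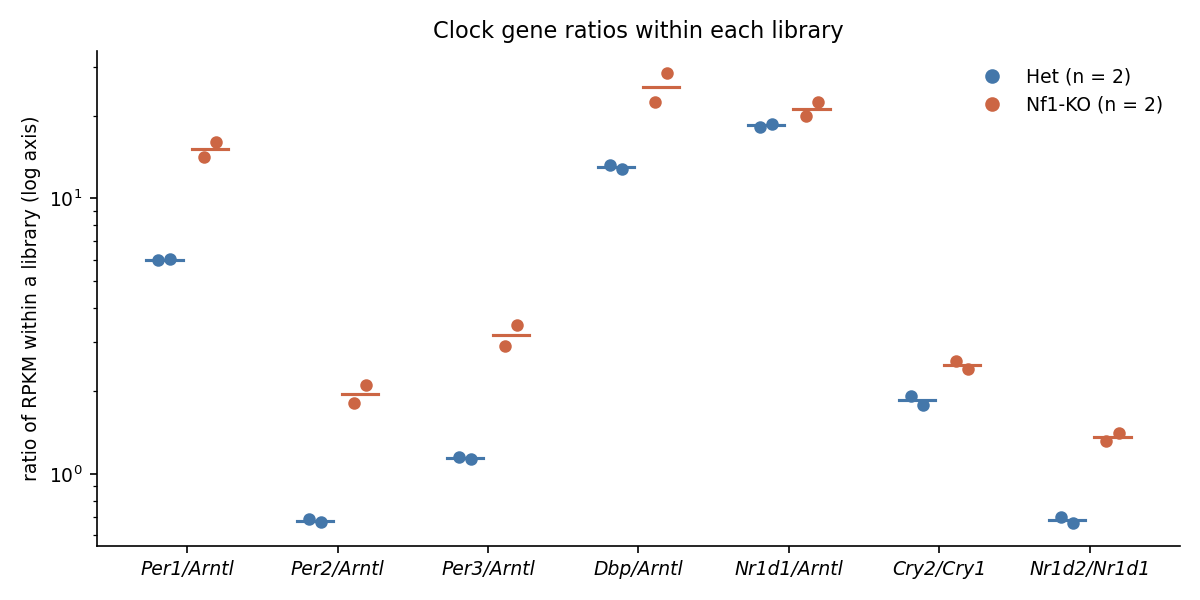
Ratio of RPKM between named gene pairs within each library (log axis), with points for libraries and bars for group means (n = 2 each). The Per/Arntl ratios are 2.52 to 2.89 times as high in Nf1-KO, while Nr1d1/Arntl differs by 1.15 times.

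The other genes of the loops were read from 5 lists (activators, Per and Cry repressors, nuclear receptors, PAR-bZIP factors with their opponent, and Dec repressors). Outside the 10 genes these hold 12, of which 7 were tested, 2 rose and 3 fell. The shares among all genes tested were 23.8% higher, 26.8% lower and 50.5% in either direction. The largest fall was in Bhlhe41, which encodes DEC2, a repressor that competes for E-boxes. It went from 10.84 and 10.81 RPKM in Het to 4.64 and 4.13 RPKM in Nf1-KO, a log2 fold change of -1.23 (standard error 0.0552, limma adjusted p 1.12e-05). Its paralog Bhlhe40 was 41.38 and 42.07 RPKM against 46.16 and 45.86 RPKM and did not pass (log2 fold change 0.03, limma adjusted p 0.311), although it did with values as deposited (0.14). The ratio of Bhlhe40 to Bhlhe41 went from 3.82 and 3.89 to 9.95 and 11.1.

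Nfil3, a repressor that binds the same D-boxes as DBP and opposes it, rose from 6.12 and 6.57 RPKM to 13.14 and 13.09 RPKM, a log2 fold change of 0.85 (standard error 0.0439, limma adjusted p 2.05e-05). The ratio of Dbp to Nfil3 was 4.75 and 4.31 in Het and 2.12 and 2.28 in Nf1-KO. Of the relatives of DBP, Hlf fell from 2.88 and 3.11 RPKM to 1.52 and 1.54 RPKM (log2 fold change -0.73, limma adjusted p 0.00011). Tef held 36.68 and 34.62 RPKM in Het and 37.1 and 36.92 RPKM in Nf1-KO and did not pass (-0.05, limma adjusted p 0.247; 0.05 with values as deposited).

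Among the nuclear receptors Nr1d2, the paralog of Nr1d1, rose where Nr1d1 fell. It was 27.82 and 27.45 RPKM in Het and 32.45 and 33.25 RPKM in Nf1-KO, a log2 fold change of 0.14 (SE 0.0274, limma adjusted p 0.00666). The ratio of Nr1d2 to Nr1d1 went from 0.696 and 0.662 to 1.32 and 1.41, so Nr1d2 stood below Nr1d1 in both Het libraries and above it in both Nf1-KO libraries. Rora, the activator that competes with REV-ERB for ROR elements, fell from 9.17 and 9.39 RPKM to 7.68 and 7.53 RPKM (log2 fold change -0.35, limma adjusted p 0.000501).

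**Figure D5:**
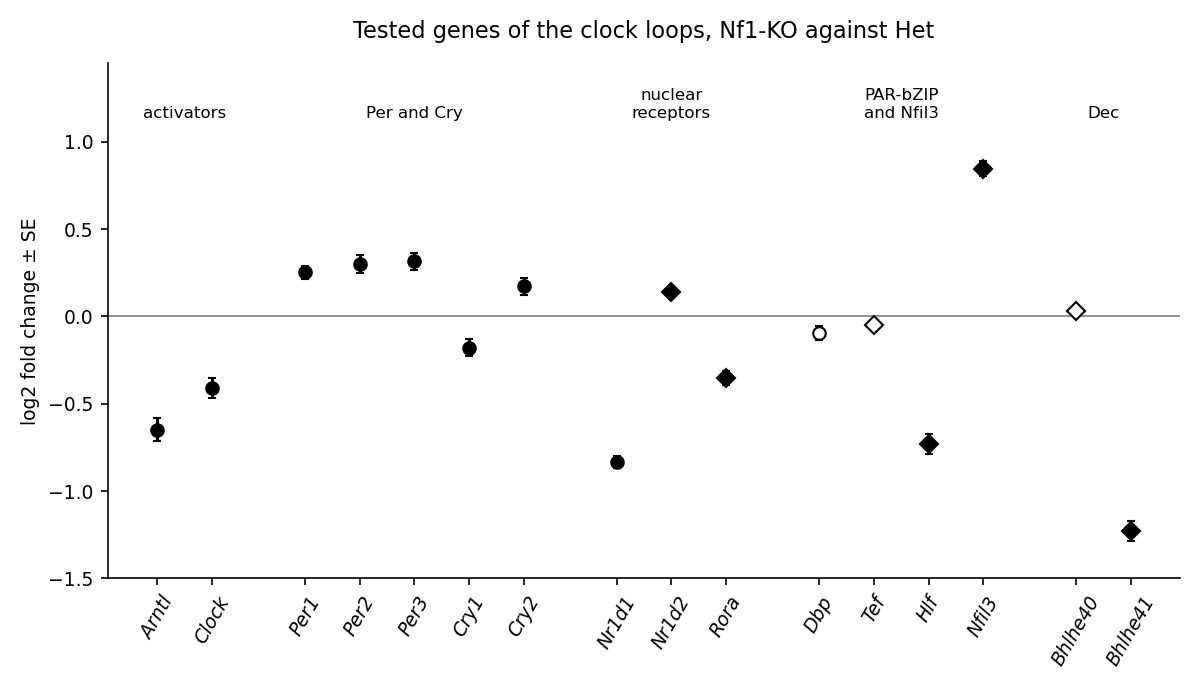
Log2 fold change ± standard error (limma) of the tested genes of the 5 clock loop lists, with circles for the 9 tested genes chosen by name and diamonds for the others; filled symbols are past the threshold. Nr1d1 and Nr1d2, and Cry1 and Cry2, lie on opposite sides of 0, and Bhlhe41 has the largest fall and Nfil3 the largest rise.

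Read by the time at which they are known to peak, the genes of neither arm moved one way. Of 11 E-box and D-box targets with a peak in the day or evening (Per1, Per2, Per3, Dbp, Tef, Hlf, Nr1d1, Nr1d2, Ciart, Usp2 and Bhlhe41), 10 were tested, 5 rose and 3 fell, with a median log2 fold change of 0.04 (0.15 with values as deposited). Of the ROR-element targets with a peak in the night or morning, 4 were tested (Arntl, Clock, Nfil3 and Cry1), 1 rose and 3 fell, with a median of -0.29 (-0.21 with values as deposited). Among all genes tested 23.8% were called higher and 26.8% lower, and the median was -0.01 (0.07 with values as deposited). Usp2, a deubiquitinase with a strong daily rhythm in many tissues, rose from 43.68 and 43.51 RPKM to 64.72 and 64.45 RPKM, a log2 fold change of 0.45. Ciart, listed under its own name at 0 and under its older name Gm129 at 0.01 to 0.06 RPKM, was not tested.

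Genes that act on the PER and CRY proteins were called about as often as genes in general (50.5% in either direction). Of 13 such kinases, ligases and other regulators (Usp2 among them), 12 were tested, 4 rose and 3 fell, with a median log2 fold change of -0.11 (-0.03 with values as deposited). Csnk1e, a kinase of PER proteins, rose by 0.16, while Csnk1d did not pass (log2 fold change -0.13, limma adjusted p 0.053). Energy state is known to reach CRY1 through AMPK. Its subunit gene Prkaa2 fell by 0.34 on the log2 scale, while the paralog Prkaa1 did not pass (-0.12, limma adjusted p 0.155). Gsk3b fell by 0.25.

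Genes further out from the loop were read next. Of 9 outputs known from many tissues 8 were tested, with calls at about the background of 50.5%: 1 rose (Ypel2, log2 fold change 0.52) and 3 fell (Leo1, Tsc22d3 and Tars, by 0.66, 0.43 and 0.15 on the log2 scale). The call of Tars was lost with values as deposited (-0.05, limma adjusted p 0.316). All 8 muscle genes reported to be under the clock were tested, 4 rose and 1 fell, with a median of 0.19 (0.29 with values as deposited). Pdk4, which encodes a pyruvate dehydrogenase kinase, rose from 284.41 and 281.92 RPKM to 660.05 and 655.65 RPKM, a log2 fold change of 1.11. Ucp3, Tcap and Fbxo32 rose by 0.63, 0.50 and 0.27, and Tead1 fell by 0.20 on the log2 scale. Myod1, the muscle factor best known as a target of BMAL1, was 8.7 and 8.44 RPKM in Het and 10.58 and 9.59 RPKM in Nf1-KO and did not pass (log2 fold change 0.11, limma adjusted p 0.119), although Myod1 did with values as deposited (0.21, limma adjusted p 0.0169).

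Per1 also belongs to the genes that glucocorticoids switch on, and that list was read beside it. All 12 of its genes, Per1 among them, were tested. Of these 9 rose and 2 fell (Tsc22d3 and Cebpd), with a median log2 fold change of 0.56. Across all genes tested 23.8% were called higher and 26.8% lower, and the median was -0.01. Fkbp5 and Zbtb16 rose by 2.02 and 1.19, against 0.25 for Per1. Per1 answers serum and cAMP too, and of 9 further genes of that response 7 were tested, 5 rose and 1 fell, with a median of 0.61. Sik1, a kinase known to limit the resetting of the clock, rose from 3.01 and 2.97 RPKM to 11.73 and 12.15 RPKM, a log2 fold change of 1.61, while Fos fell by 0.43 on the log2 scale. The part of either response in the levels of Per1 was not tested.

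Markers of some other cell types moved with the groups, while calls were common among all genes tested (23.8% higher, 26.8% lower, 50.5% in either direction). In macrophage and leukocyte genes 5 of 8 were tested and rose, and the list summed to 12.7 to 13.1 RPKM in Het and 34.7 to 34.8 RPKM in Nf1-KO, with Adgre1 at 0 in all libraries. The 7 Schwann cell genes all rose, from a sum of 16.0 to 16.4 RPKM to one of 35.1 to 36.8 RPKM, and the 5 fibroblast genes all rose, from 84.4 to 86.7 RPKM to 128 to 128.7 RPKM. Endothelial genes summed to 76.4 to 76.6 and 82.6 to 83.8 RPKM, with 2 of 6 higher and 1 lower, and satellite cell genes to 7.83 to 8.15 and 9.04 to 9.21 RPKM, with 1 of 3 tested higher. Among adipocyte genes 2 of 3 tested rose, Fabp4 and Cidec (sums of 173 to 179 and 249 to 252 RPKM, mostly Fabp4). Adipoq was lower without passing (log2 fold change -0.20, limma adjusted p 0.0512). Lep and Plin1 were not tested, with Lep at 0.21 and 0.22 RPKM in Het and 0.03 and 0.05 RPKM in Nf1-KO. Plin1 held 0.41 and 0.34 RPKM in Het and 0.35 RPKM in both Nf1-KO libraries. Of the blood genes only Alas2 was tested, and it did not pass (log2 fold change 0.11, limma adjusted p 0.159; 0.18 and 0.0422 with values as deposited), while Hbb-b1, Hbb-b2 and Hbb-bt were listed at 0 in all 4 libraries. Of the myofibre markers 7 of 8 fell, with log2 fold changes from -0.18 (Ckm) to -1.74 (Pvalb). Mb rose by 0.70, so this list did not move evenly. In bulk RNA fewer cells of a type and less RNA per cell cannot be told apart, and the part of these shifts in the clock gene changes was not tested.

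The genes whose values over the 4 libraries were closest to those of Per3 and Nr1d1, the clock genes with the largest rise and the largest fall on the log2(RPKM + 1) scale, were looked up among 4822 other tested genes of at least 5 RPKM. Closeness was the Euclidean distance between centred scaled log2(RPKM + 1) values. For Per3 they were Txn2, Pxmp4 and Dmpk, at distances of 0.00277, 0.00712 and 0.00933. For Nr1d1 they were Ccnk, Col4a1 and Synm, at 0.0343, 0.0416 and 0.0458. Col4a1, for example, was 34.13 and 34.07 RPKM in Het and 20.34 and 19.44 RPKM in Nf1-KO. With 4 libraries in 2 groups, any gene with a similar fold change is close by this measure.

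The authors' deposited table called 4 of the 10 genes higher (Per1, Per2, Per3 and Cry2) and 3 lower (Arntl, Clock and Nr1d1), against 15% higher, 16.6% lower and 31.6% in either direction over its 13985 genes. Mean normalized counts there were 236 for Arntl, 471 for Cry1, 526 for Per2 and 4294 for Nr1d1, which sets the precision behind each. Its log2 fold changes for Per1, Per2 and Per3 were 0.27, 0.47 and 0.42, and its standard errors ran from 0.048 for Nr1d1 to 0.58 for Npas2. The table was made by the authors from the same 4 libraries, so it is no separate evidence. Which sign of its fold changes means higher in Nf1-KO was itself read from the values of these libraries.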

How the data were processed

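Libraries were made from total RNA of 2 Het and 2 Nf1-KO samples with a TruSeq RNA kit, per the labels' protocols. The submitters' processing notes name STAR 2.4.2a, DESeq2 and build mm9, while the counting program, annotation and strand setting are not given in the sources used here. Positions are those of GRCm38 (GENCODE M21), not of the authors' build. The authors deposited 1 RPKM value per gene and library for 34682 rows; the unit is not named and was read from the values. In a comparison table that the authors deposited, per the file headers, the signal column is the mean of counts divided by size factors, the score is the log2 fold change over its standard error, and a p-value and adjusted p-value follow.

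Rows named by a number (33) were left out, and the highest-mean row was kept for each name. Values were scaled by trimmed means of log ratios without weights (cutting 30% by ratio and 5% by abundance at each end; factors 0.964, 0.963, 1.04 and 1.04) and tested as log2(RPKM + 1) with limma 3.58.1 in R 4.3.3, with a variance trend and no covariate. Genes of at least 0.5 RPKM in at least 2 libraries entered, and p-values were two-sided. The test had been planned for counts or RPKM, and RPKM was found. The script was tested on simulated data. Depth was estimated from the steps of low values in short genes. Libraries with the same replicate number were not paired (correlation of the deviations of same-numbered libraries 0.0463). The labels give no batch. The clock genes and all lists were chosen with earlier results of these data known. All 10 clock genes are named. Of the lists, genes past the threshold could be named, while others are given by count or were named after their values were seen.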

Additional observations from a re-analysis of the deposited data

How the results depend on the processing

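Of 630 values under 15 alternatives chosen with the design, 606 held both direction and call or, for counts, stayed within 1.5 times. Arntl, Clock, Nr1d1, Per1, Per2 and Per3 kept their calls in each of them. Left unscaled, the data gave 3760 higher and 1883 lower genes (against 2542 and 2860), Cry1 was at -0.10 (limma adjusted p 0.139) and Dbp turned to 0.0087; the cause was not tested. Cry2 was at 0.17 (limma adjusted p 0.0752) with no filter. At an adjusted p under 0.01, Cry1 (-0.18) and Cry2 (0.17) lost their calls. Leaving out 1 library at a time gave log2 fold changes of -0.20 to -0.16 for Cry1, 0.13 to 0.22 for Cry2 and -0.14 to -0.048 for Dbp, and each such test rests on fewer samples; Dbp passed without Nf1-KO library 2 (limma adjusted p 0.0297). Over all alternatives the adjusted p ran from 0.0163 to 0.139 for Cry1, from 0.0046 to 0.132 for Cry2 and from 0.0297 to 0.868 for Dbp. In the fit with a replicate block, 5409 genes and 8 clock genes were called, against 5402 and 8; the block changed no call of a clock gene. The log2 fold change of Arntl ran from -0.996 (pseudocount of 0.1) to -0.58 (as deposited). In the authors' deposited table Npas2 had the fewest normalized counts of the 10 genes, 25.5 on average, and Arntl came next with 236.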
